A study of Mus musculus with 16 samples.

Results

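The early and the late response to sorafenib were compared in p53-/-; Myc hepatoblasts by 1 contrast over all 16 libraries of the deposited count table, (Sorafenib_7days - DMSO_7days) - (Sorafenib_48h - DMSO_48h), tested for 20444 of its 40840 genes. The libraries were chosen by their labels, and all 16 of 16 entered. The cells are a mouse liver progenitor line that lacks p53 and overexpresses Myc, used as a model of hepatocellular carcinoma. They had received sorafenib, a kinase inhibitor given in advanced liver cancer, at 8.5 µM, or its solvent DMSO, for 48 hours or for 7 days, with 4 libraries in each of the 4 groups. All groups shared the genotype, and the model is 1 line grown in culture, without the other cells of a liver. The labels do not say whether replicates were separate cultures, so that p-values measure the spread between these libraries only. They name no batch, and time in culture cannot be told apart from anything else that differed between the 48-hour and 7-day experiments.

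Sorafenib blocks RAF kinases and several receptor tyrosine kinases, and it also impairs mitochondrial respiration. Cells meet such an insult with fast programs, among them the ATF4 response to amino acid shortage and mitochondrial stress, the genes under the oxygen-sensing factor HIF, and genes of the cytoskeleton and matrix under YAP and TEAD. Slower programs can follow, such as the interferon response, which type I interferon or nucleic acids in the cytosol switch on.

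The total of counts ran from 16586254 to 30828427 per library (median 26360677), lowest in Sorafenib_48h replicate 2. Replicates were compared by chi-square among genes that averaged at least 100 counts, with libraries scaled by their sums of counts. With this scaling, counts lost in 1 region also shift the share of every other gene. Sorafenib_48h replicate 2 stood apart, with a median chi-square per gene of 6.86 to 7.45 against its replicates and 0.655 to 1.4 between any other replicates of a group. For genes ordered along GRCm39, its normalized counts stepped down on chromosome 14, by a log2 step of -0.73 (to 0.605 times the level before it), and did not recover on chromosomes 15 to 19 and X. No other library had a step above 0.0685. Of the 17944 tested genes with a position, 3893 lay in the lowered region, which took 14.3% of the counts of this library against 20.8 to 21.6% in the others. The difference for each gene named from this region, where a fold is given, is therefore also given without this library. Over the 42 gene lists used below, the number of called members was larger without it in 39 and smaller in none, and in none did the majority of called members turn from higher to lower or back. DMSO_7days replicate 4 and DMSO_48h replicates 2 and 3 stood apart through a few rows. LOC118568312, AY036118, Lars2, LOC118568007, mt-Rnr2 and mt-Rnr1, which include the mitochondrial ribosomal RNAs, took 3.46%, 3.29% and 2.36% of the counts of these libraries and 0.384 to 1.05% of the others. The 10 genes with the largest chi-square carried 93.6 to 95.8% of the sum between DMSO_7days replicate 4 and its replicates, and the others averaged 3.04 to 3.42 per gene. Without DMSO_7days replicate 4 the contrast tested below called 7246 genes, with 373 transient, 489 late and 179 sign-reversing, and without DMSO_48h replicate 2 it called 7211, with 369, 464 and 184.

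Of the markers that define liver progenitors, Dlk1 had 3488 to 38122 counts and Krt19 had 865 to 3013, whereas Alb had 0 to 1, Hnf4a 0 and Afp 0 to 14. Of the 9 fibroblast markers, the collagens Col1a1 (39863 to 81817 counts) and Col3a1 (8944 to 82364) were abundant. Dcn had 911 to 5889, Pdgfrb 434 to 2011 and Pdgfra 147 to 1768. The others were low, with Col1a2 at 48 to 334, Des at 12 to 114, Lum at 0 to 41 and Lrat at 0. Ptprc (0 to 4 counts), Cdh5 (0 to 2) and Adgre1 and Cd3e (0), which mark blood cells, endothelium, macrophages and T cells, were at or near 0, whereas Kdr, of the endothelial list, had 26 to 270, and Csf1r and Cd68, of the list of macrophages and blood, had 3 to 95 and 47 to 91. Summed over the 11 liver progenitor and hepatocyte markers, CPM (counts scaled to the total of their library) were 1410 to 1510 with DMSO and 499 to 590 with sorafenib at 48 hours, and 725 to 819 and 275 to 286 at 7 days. Over the 9 fibroblast markers they were 4730 to 4890, 4850 to 5570, 3560 to 3760 and 2540 to 2600 in the same order. Over the 6 endothelial markers they were 2.51 to 4.08, 4.79 to 6.45, 1.68 to 2.84 and 8.25 to 9.5, and over the 7 macrophage and blood markers 3.08 to 3.64, 2.38 to 3.5, 5.03 to 6.08 and 3.09 to 3.6. The part of such shifts in the results below was not tested, and in bulk RNA fewer cells of a kind and less RNA per cell cannot be told apart.

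The response to sorafenib differed between 48 hours and 7 days for 7515 genes (36.8% of those tested) at an FDR under 0.05 (Benjamini-Hochberg adjustment of p-values from edgeR's quasi-likelihood test, used throughout). It was higher at 7 days for 3162 genes (15.5%) and lower for 4353 (21.3%). The split depended on the scaling. With total counts in place of TMM factors, 4125 genes were higher and 3292 lower, with a median difference over all genes of 0.12 on the log2 scale against 0.02. The 7515 genes fell into several kinds. The response passed the test at 48 hours only for 1435 of them (19.1%) and at 7 days only for 1611 (21.4%). It passed at both times with opposite signs for 978 (13%), at both times with the larger size at 7 days for 1758 (23.4%), at both times with the smaller size at 7 days for 1626 (21.6%), and at neither for 107 (1.42%). As background, 26.9% of tested genes were higher and 27.7% lower with sorafenib at 48 hours, and 28.9% higher and 27.9% lower at 7 days. Of the 10646 genes that averaged at least 100 normalized counts, 55.6% were called for the difference.

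Stricter classes were then set, which use these same values, so that their sizes are a description. A transient gene passed the test of the difference and that at 48 hours, with a log2 fold change of at least 1 in size at 48 hours and under 0.5 at 7 days. A late gene passed the test of the difference and that at 7 days, with the same limits the other way round. A sign-reversing gene passed all 3 tests with at least 0.5 in size and opposite signs. Transient genes numbered 174 that were higher at 48 hours (0.851% of tested genes) and 202 that were lower (0.988%). Late genes numbered 302 that were higher at 7 days (1.48%) and 187 that were lower (0.915%). The sign went from higher to lower in 73 genes (0.357%) and from lower to higher in 118 (0.577%). Transient is a matter of size, since 102 of the 174 and 45 of the 202 transient genes still passed the test at 7 days.

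**Figure D1:**
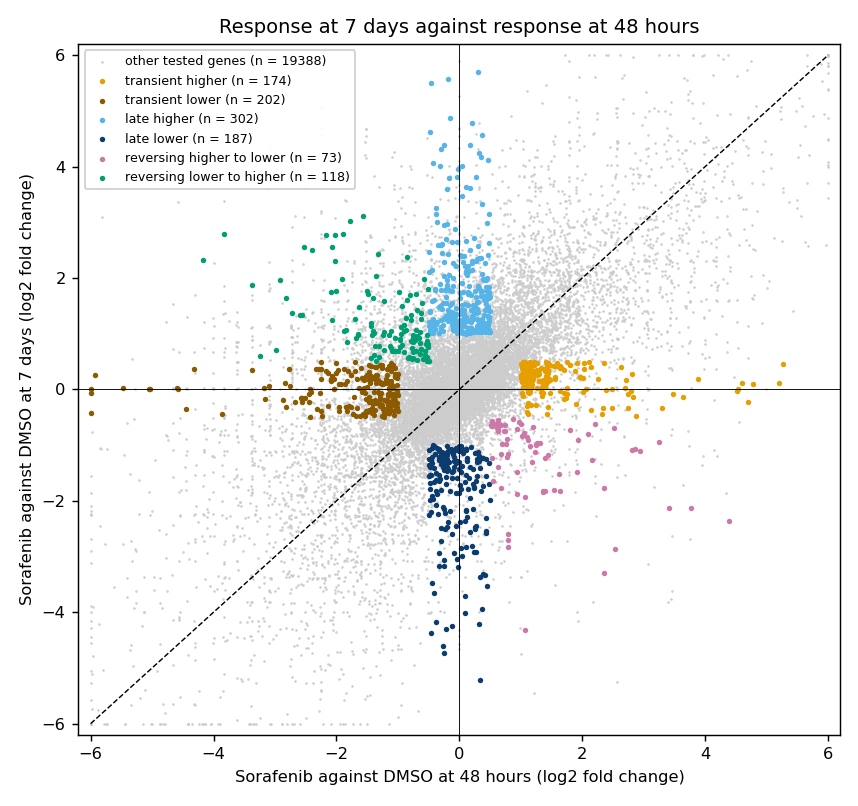
Log2 fold change of sorafenib against DMSO at 48 hours (horizontal) and at 7 days (vertical) for all 20444 tested genes, limited to between -6 and 6, with genes on the dashed line having equal responses. Transient genes lie along the horizontal axis, late genes along the vertical axis, and the 73 and 118 sign-reversing genes in the lower right and upper left areas.

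Most transient genes met their class through a change in the DMSO cells, not in the sorafenib cells. Transiently higher genes had a median response of 1.27 on the log2 scale at 48 hours and 0.21 at 7 days. Between the time points their median change was 0.98 in DMSO cells and -0.15 in sorafenib cells, and the DMSO change was the larger in size for 137 of 174 (78.7%). Transiently lower genes had median responses of -1.42 and -0.02, with median changes over time of -1.20 in DMSO and 0.29 in sorafenib cells, and DMSO moved more for 150 of 202 (74.3%). Sorafenib cells thus kept, in the median, much of their 48-hour level, and DMSO cells came to it. For late higher genes the medians over time were -0.95 in DMSO and 0.50 in sorafenib cells, with DMSO moving more for 200 of 302 (66.2%). Late lower genes were the class in which sorafenib cells moved more, with medians of 0.57 in DMSO and -1.01 in sorafenib cells, and DMSO moved more for 66 of 187 (35.3%). In sign-reversing genes DMSO moved more for 42 of 73 (57.5%) and 82 of 118 (69.5%). For all tested genes both medians were near 0 (-0.01 and 0.01), and 23.9% rose and 25.5% fell over time in DMSO cells, against 17.5% and 22.3% in sorafenib cells. What the DMSO cells went through between 48 hours and 7 days is not given by the labels.

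**Figure D2:**
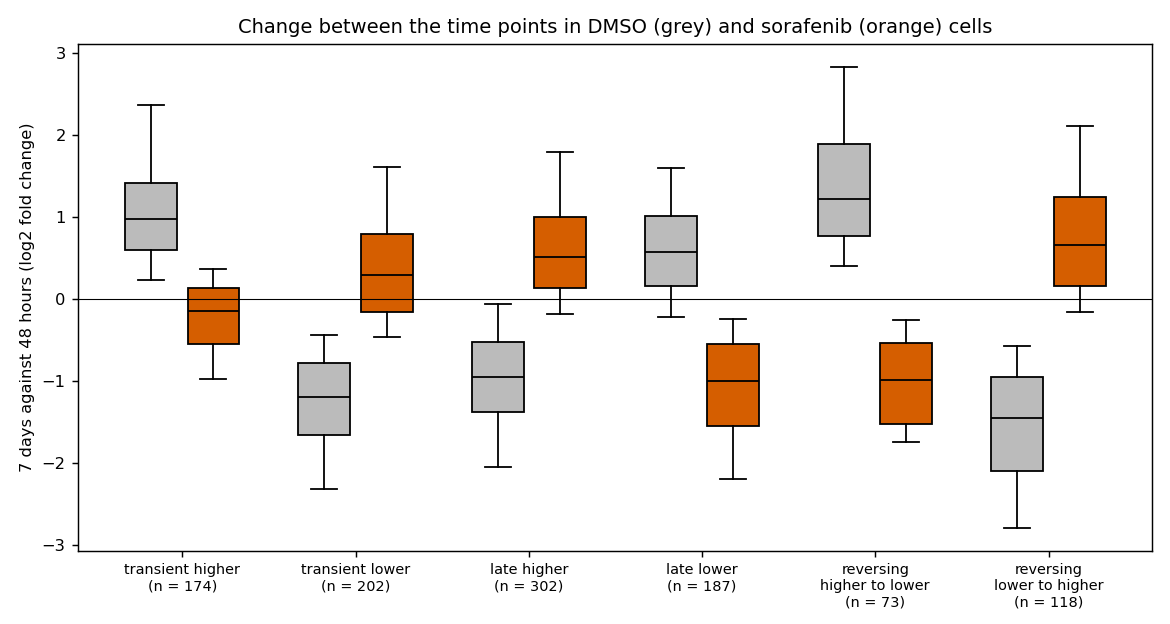
Log2 fold change of 7 days against 48 hours within DMSO cells (grey) and within sorafenib cells (orange) for the genes of each class. Boxes span the quartiles, the inner line is the median and whiskers reach the 10th and 90th percentiles. The grey boxes lie further from 0 than the orange boxes in both transient classes, and the orange box lies further from 0 in the late lower class.

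Genes with a transient fall or a reversal upward held 11 of the 24 tested genes of the hypoxia response, which HIF switches on when oxygen is short. Of the 24, 19 had a higher and 2 a lower response at 7 days. The median response was -1.38 at 48 hours and 0.13 at 7 days, against -0.05 and 0.02 over all tested genes. Over time the median of the list fell by 1.36 on the log2 scale in DMSO cells and by 0.16 in sorafenib cells. The counts were the same 19 and 2 without Sorafenib_48h replicate 2 and with total counts as the scaling.

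Bnip3, a receptor that marks mitochondria for removal, is on chromosome 7 of GRCm39 from 138490690 to 138511253. It had normalized counts of 2516, 2719.7, 2814 and 2872 with DMSO and 274, 292, 318 and 270.3 with sorafenib at 48 hours, and 271, 159, 171 and 160.5 with DMSO and 234, 321, 285 and 297 with sorafenib at 7 days. Sorafenib libraries were below DMSO libraries at 48 hours, whereas at 7 days 3 of the 4 lay above every DMSO library and the other lay below DMSO replicate 1. The log2 response went from -3.24 to 0.6, a difference of 3.84 (SE 0.17, FDR 8.75e-13). Pdk1, the kinase that keeps pyruvate out of mitochondria, had 5823, 6012, 6375 and 6235 with DMSO and 1643, 1789, 1706 and 1712 with sorafenib at 48 hours, and 876, 629.6, 634 and 621 with DMSO and 1218, 1270.2, 1249 and 1241 with sorafenib at 7 days. The order of the groups was the same as for Bnip3, without overlap at 7 days, and the difference was 2.69 (SE 0.10, FDR 1.14e-13). P4ha2, a subunit of the collagen prolyl hydroxylase, had 3808, 4158, 4487 and 4478 with DMSO and 1298, 1455, 1403 and 1229 with sorafenib at 48 hours, and 774, 569.6, 581 and 531 with DMSO and 1197, 1232, 1189.5 and 1199 with sorafenib at 7 days. The response of P4ha2 turned from -1.65 to 0.98. In all 3 genes the mean of DMSO cells had by 7 days dropped below that of sorafenib cells, and DMSO_7days replicate 1 was the highest of its group.

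Ndrg1 and Plekha2 reversed in the same direction. Normalized counts of Ndrg1, a stress-induced gene of the hypoxia list, were 3744, 3762, 4454 and 4964 with DMSO and 2551, 1725, 2798 and 2572 with sorafenib at 48 hours, and 972, 990.2, 957 and 1044 with DMSO and 3265, 3250.2, 3112 and 3155 with sorafenib at 7 days. Ndrg1 lies in the lowered region, and its difference was 2.5 (SE 0.15, FDR 9.06e-11) with all libraries and 2.37 without Sorafenib_48h replicate 2. Normalized counts of Plekha2, an adaptor that binds membrane phosphoinositides, went from 673 ± 62.2 (SD, n = 4) to 373 ± 34.4 with sorafenib at 48 hours and from 157 ± 24.6 to 474 ± 19 at 7 days. Ddit4, an inhibitor of mTORC1 that answers to hypoxia and to ATF4, turned from -0.86 to 1.07, with 6094 ± 312 and 3349.8 ± 234 normalized counts at 48 hours and 929 ± 148 and 1949 ± 75.6 at 7 days.

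For other genes the fall at 48 hours was smaller or gone at 7 days. Selenbp1, a methanethiol oxidase and the leading transiently lower gene, is on chromosome 3 of GRCm39 from 94840334 to 94852203. It had 504, 455, 521 and 588 with DMSO and 53.3, 65, 68.5 and 52.2 with sorafenib at 48 hours, and 68.1, 36.8, 33.7 and 39.9 with DMSO and 52.9, 51.2, 41.1 and 37.4 with sorafenib at 7 days. DMSO and sorafenib libraries overlapped at 7 days, and the difference of the responses was 3.17 (SE 0.26, FDR 5.82e-09). Kbtbd11, a Kelch and BTB domain protein outside the list, ran a like course, with responses of -2.25 and 0.37. Fam162a, a mitochondrial protein, had responses of -2.25 and -0.39. Pgk1, the glycolytic phosphoglycerate kinase, had responses of -1.43 and 0.41. Both lie in the lowered region, and their differences of 1.86 and 1.85 were 1.75 and 1.74 without Sorafenib_48h replicate 2, which was the lowest library of its group for both (1268, 877, 1303 and 1257 and 3216, 2233, 3268 and 3213 normalized counts in the 4 libraries). Egln3, an oxygen-sensing prolyl hydroxylase, stayed lower at both times, by -2.48 and then -1.5. Adm, a vasodilator peptide, had only 72.3, 57.3, 90.9 and 61.4 normalized counts in DMSO at 48 hours and 5.68 to 23.6 in the other groups.

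HIF binds DNA at a core of letters ACGTG. This core, searched on both strands of RefSeq promoter windows (250 bases before to 50 after the gene start, build GRCm38.p6), was in 19.6% of 32851 windows, in 26.7% of the 14942 tested genes that had one, and in 17 of the 21 hypoxia genes that had one (81%). Adm, Car12, Kdm3a and Pdk1 had no match in their windows. It was in 36.2% of transiently lower genes and in 18.9 to 28.3% of the other classes. The transiently lower class holds members of the hypoxia list. Of these, Selenbp1, Slc2a1, Ldha, Egln1, Fam162a and Pgk1 had a match and Adm had none. The shares of the list and of this class are therefore not separate. A match is a run of letters, not a bound site. The stretches below, given to show the core in genes whose fall at 48 hours was lost or turned by 7 days, each have 1 exact place in GRCm39, chr7:138511301-138511380 on the minus strand, chr11:53991634-53991713, chrX:105230528-105230607 and chr7:46495149-46495228 on the plus strand. They are written 5′ to 3′ on the strand of the gene, with matches on either strand in capitals.
Bnip3: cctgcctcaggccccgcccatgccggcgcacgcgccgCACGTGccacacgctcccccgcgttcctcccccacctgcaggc
P4ha2: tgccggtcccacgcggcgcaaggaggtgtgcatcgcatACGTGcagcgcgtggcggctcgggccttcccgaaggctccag
Pgk1: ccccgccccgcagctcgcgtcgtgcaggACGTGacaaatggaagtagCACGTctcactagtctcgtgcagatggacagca
Ldha: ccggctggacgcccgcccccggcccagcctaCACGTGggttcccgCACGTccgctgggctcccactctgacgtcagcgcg

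Glycolysis moved with the hypoxia list, with which it shares genes. Of 36 tested genes of glycolysis and lactate, 19 had a higher and 6 a lower response at 7 days, and the median went from -0.58 to -0.08. The liver-type phosphofructokinase Pfkl, the committing enzyme of glycolysis, had 9892, 9819.7, 10626 and 10873 with DMSO and 1904, 1868, 1931 and 1859 with sorafenib at 48 hours, and 2062, 1440, 1475 and 1447 with DMSO and 1467, 1520.3, 1559 and 1502 with sorafenib at 7 days. At 7 days sorafenib libraries lay among the DMSO libraries, of which replicate 1 was the highest, and the difference was 2.36 (SE 0.12, FDR 2.95e-12). Ldha, which makes lactate, had responses of -1.1 and 0.08, and the glucose carrier Slc2a1 had -1.25 and 0.45. Gpi1 and Tpi1 were transiently lower as well. The platelet-type isoform Pfkp was late higher, with 1444, 1429, 1624 and 1607 with DMSO and 1353, 1414, 1439 and 1382 with sorafenib at 48 hours, and 509, 469, 457 and 479.5 with DMSO and 1566, 1651, 1626 and 1628 with sorafenib at 7 days. DMSO cells lost most of their Pfkp over time (-1.67 on the log2 scale) and sorafenib cells gained a little (0.21). Hexokinase Hk1 was late higher too, with responses of 0.43 and 1.97. Against this direction, the aldolase isoform Aldoc fell further, from 4493 ± 232 to 435 ± 76.5 normalized counts at 48 hours and from 1598 ± 223 to 30 ± 9.02 at 7 days, with a difference of -2.31 (FDR 4.90e-08).

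**Figure D3:**
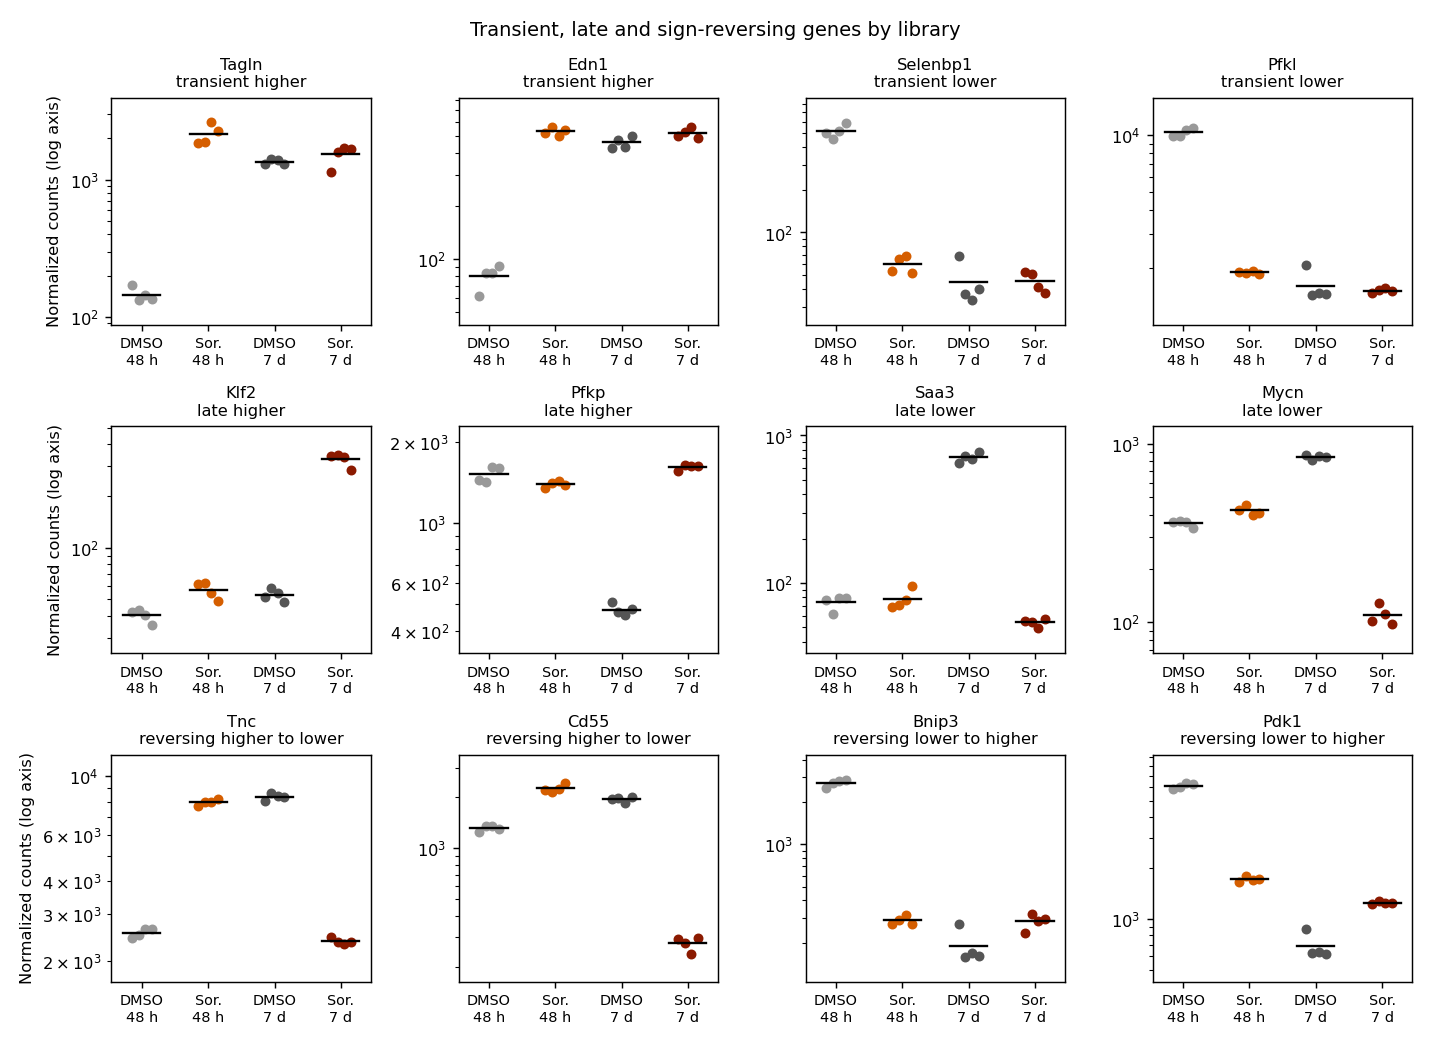
Normalized counts (log axis) in each library, 4 points a group with the mean as a line, for 12 genes, 2 named genes from each class in the order transient, late and sign-reversing. For Tagln, Edn1, Selenbp1 and Pfkl the DMSO groups differ by time and the 7-day groups lie together. For Klf2, Pfkp, Saa3 and Mycn the 48-hour groups lie closer together than the 7-day groups, and for Tnc, Cd55, Bnip3 and Pdk1 the order of DMSO and sorafenib means turns.

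The transiently higher genes with the largest differences were Tagln, Apela, Msln, Edn1 and Nrg1. Tagln, the actin-binding protein transgelin of smooth muscle and myofibroblasts, is on chromosome 9 of GRCm39 from 45840909 to 45847404. It had 170.1, 133, 146 and 136 with DMSO and 1834, 1884, 2607 and 2257 with sorafenib at 48 hours, and 1298, 1404, 1379 and 1291 with DMSO and 1138, 1581, 1709 and 1676 with sorafenib at 7 days. Sorafenib libraries were above DMSO at 48 hours, and the 2 groups overlapped at 7 days, when DMSO cells had risen by 3.21 on the log2 scale. The difference of the responses was -3.7 (SE 0.18, FDR 2.81e-12). Apela, a peptide hormone of the apelin receptor, had 116, 141, 131 and 126 with DMSO and 981, 938, 969.9 and 906 with sorafenib at 48 hours, and 504, 517, 522 and 549 with DMSO and 398, 379, 369 and 361 with sorafenib at 7 days. Its sorafenib libraries turned from above to below DMSO, with responses of 2.88 and -0.47.

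Endothelin (Edn1), a vasoconstrictor peptide, and neuregulin (Nrg1), a ligand of ERBB receptors, followed the same course. Normalized counts of Edn1 were 61.6, 83.3, 83.7 and 91.6 with DMSO and 521, 559, 501 and 536 with sorafenib at 48 hours, and 426, 475, 432 and 499.9 with DMSO and 496, 521, 563 and 488 with sorafenib at 7 days. At 48 hours those of Nrg1 were 133 ± 10.4 (SD, n = 4) in DMSO cells and 748 ± 70.6 in sorafenib cells, and at 7 days 689.9 ± 51.1 and 698 ± 32.3. Sorafenib and DMSO libraries overlapped for both at 7 days, and the differences were -2.54 and -2.47. Mesothelin (Msln), a surface glycoprotein, had 74.3, 81.5, 83.7 and 63.1 with DMSO and 550, 361, 577 and 589 with sorafenib at 48 hours. It lies in the lowered region, which Sorafenib_48h replicate 2 shows, and its difference was -2.83, or -2.96 without that library. Of the immediate early genes, Jun was transiently higher (1.87 and 0.34) and Fos transiently lower (-1.96 and -0.4). Over the list of ERK feedback and early response genes 8 of 33 were higher and 14 lower at 7 days (66.7% called). Of genes that averaged at least 100 normalized counts 55.6% were called. The median difference of the list was -0.11, and with total counts as the scaling 10 were higher and 13 lower.

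The responses of the matrix and YAP lists shrank as well. Of 48 genes of collagens, laminins and matrix, 4 had a higher and 33 a lower response at 7 days. Median responses were 0.76 and then 0.18, and the response shrank without changing sign for 20. Between the time points the median of this list changed by 0.22 in DMSO cells and by -0.44 in sorafenib cells. Fibronectin (Fn1), an abundant adhesive glycoprotein, had 58973, 61804, 62019 and 65317 with DMSO and 154690, 164480, 155280 and 155820 with sorafenib at 48 hours, and 122180, 129490, 125830 and 126170 with DMSO and 138610, 138180, 141290 and 135010 with sorafenib at 7 days. Its DMSO level rose by 1.02 on the log2 scale between the time points and sorafenib libraries stayed above it, with responses of 1.34 and 0.14 (difference FDR 2.32e-14). Sparc, Lamc1, Col5a2 and Postn, all matrix proteins, were transiently higher by 1.12, 1.15, 1.12 and 2.39 at 48 hours. Other matrix genes fell further instead. Col6a1 and Col6a2, chains of the beaded-filament collagen VI, had responses of -1.76 and -2.04 at 48 hours and -3.06 and -3.78 at 7 days, and Col3a1 had -0.61 and -2.13. Decorin (Dcn), a small proteoglycan that binds collagen, was late lower, with 2188, 2178, 2100 and 2070.4 with DMSO and 2674, 3209, 2723 and 2866 with sorafenib at 48 hours, and 4738, 4835, 5083 and 4903 with DMSO and 1025, 1021, 984 and 941 with sorafenib at 7 days.

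Of 28 YAP and TEAD targets, 2 had a higher and 20 a lower response at 7 days, with medians of 0.88 and 0.24. Between the time points the median of the list rose in both conditions, by 0.74 on the log2 scale in DMSO cells and by 0.29 in sorafenib cells. The matricellular genes Ccn1 and Ccn2 and the muscle ankyrin repeat gene Ankrd1 are the best-known members of this list. Ccn2 had 308, 273, 322 and 291 with DMSO and 17719, 20411, 19424 and 16991 with sorafenib at 48 hours, and 3557, 4443, 4096 and 4243 with DMSO and 24961, 24567, 24703 and 24725 with sorafenib at 7 days. The rise over DMSO remained at 7 days but was smaller, since DMSO cells had themselves risen, and the response went from 5.97 to 2.6 (FDR 8.16e-16). Responses of Ccn1 were 2.78 and 1.16. Those of Ankrd1, in the lowered region, were 6.75 and 3.44, with a difference of -3.31 with all libraries and -3.42 without Sorafenib_48h replicate 2.

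The reversal from higher to lower took in matrix, surface and chemokine genes. Tenascin C (Tnc), a matrix protein of wounds and tumors, had 2435, 2509, 2639 and 2642 with DMSO and 7667, 8004, 7956 and 8187 with sorafenib at 48 hours, and 8015, 8650.1, 8433 and 8344 with DMSO and 2454, 2352, 2318 and 2361 with sorafenib at 7 days. The groups did not overlap at either time and changed places, from a response of 1.64 to one of -1.82 (difference -3.46, SE 0.05, FDR 1.27e-19). In Tnc both conditions moved, DMSO by 1.71 and sorafenib by -1.75 over time. Ltbp2, a microfibril protein related to the latent TGF-beta binding proteins, is on chromosome 12 of GRCm39 from 84829986 to 84923306 and had the largest difference among the named reversing genes, -4.18 (SE 0.12, FDR 2.16e-15), with 63.5, 60.7, 58.2 and 68.3 with DMSO and 498, 676, 632 and 576 with sorafenib at 48 hours, and 451, 452, 474 and 411 with DMSO and 237, 229.8, 234 and 232 with sorafenib at 7 days.

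Cd55, which shields cells from complement, had 1256, 1348, 1359.9 and 1300.5 with DMSO and 2200.1, 2158, 2256 and 2445 with sorafenib at 48 hours, and 1958, 1979.6, 1847 and 2006 with DMSO and 292, 275, 238 and 297 with sorafenib at 7 days. It was higher with sorafenib at 48 hours, and over time it changed by -3.04 on the log2 scale in sorafenib cells and by 0.57 in DMSO cells. Cemip, a hyaluronan-degrading protein, had responses of 2.81 and -1.08, and the glutathione transferase Gsta3 had 1.92 and -1.49. The chemokines Cxcl12 and Ccl2 reversed too, with responses of 1.04 and 0.8 at 48 hours and -0.79 and -1.15 at 7 days. Normalized counts of Ccl2, which draws monocytes, were 124, 119.7, 109 and 107 with DMSO and 203, 215, 183 and 204 with sorafenib at 48 hours, and 1101, 1270.4, 1212 and 1276 with DMSO and 619.8, 535, 499 and 542 with sorafenib at 7 days. DMSO cells gained the most over time. Lif, a cytokine of the interleukin 6 family, was the third reversing member of the list of chemokines, cytokines and NF-kB targets. Of its 32 tested genes, 7 were higher and 14 lower at 7 days (65.6% called, against 36.8% of all tested genes).

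Late genes with higher expression held interferon-stimulated genes, some of which had almost no counts in the other 3 groups. Of 44 tested genes of that list, 20 had a higher and 3 a lower response at 7 days, and the median response was 0.13 at 48 hours and 1.75 at 7 days. With the 3 members that had a group at 0 counts set at their bound (3 counts per library), the medians were 0.16 and 1.75. Here the sorafenib cells moved, by a median of 1.59 over time against 0.18 in DMSO cells. Without Sorafenib_48h replicate 2 the counts were 21 and 4. Many members had few counts outside sorafenib cells of 7 days, and 4 of the 44 would not have reached 10 counts in total without those libraries. Of the 19 that had at least 10 counts in every library, 6 had a higher and 3 a lower response, with medians of 0.48 and 0.71. Of all 12158 genes under that filter, 3293 were higher and 3534 lower, a like share for higher. The size of the shift in the list thus rests on members near 0 in the other groups.

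Isg15, a ubiquitin-like protein that is conjugated to others in the interferon response, had 8.8, 6.94, 7.15 and 15.6 with DMSO and 9.82, 3.02, 10.5 and 7.95 with sorafenib at 48 hours, and 2.16, 4.28, 3.45 and 6.49 with DMSO and 86.6, 95.8, 96.2 and 79.7 with sorafenib at 7 days. All 4 sorafenib libraries of 7 days stood above the other 12 libraries (FDR of the difference 1.34e-07). Oasl1, of the oligoadenylate synthetase family, had 87.7, 84.5, 77.8 and 82.6 with sorafenib at 7 days and 0 to 7.82 elsewhere (FDR 9.56e-06). Ifit1, which binds foreign RNA, had 153, 122, 123 and 128 against 2.57 to 13.8 elsewhere (FDR 4.56e-05). It lies in the lowered region, and its 4 sorafenib libraries of 48 hours had 4.21, 4.54, 13.3 and 6.81, with replicate 2 within their range (difference 3.54, or 3.4 without it). The RNA sensor Ifih1, at a higher level, had 49.9, 44.2, 49 and 63.1 with DMSO and 58.9, 59, 54.2 and 60.2 with sorafenib at 48 hours, and 53, 52.3, 73.4 and 65.9 with DMSO and 183, 227, 189.8 and 209.5 with sorafenib at 7 days. The first 3 groups overlapped and the last lay above them, with a difference of 1.56 (SE 0.19, FDR 1.53e-06). Chemokines of the same response rose with them. Cxcl10 had 12.6, 13.6, 16.2 and 10.2 with sorafenib at 48 hours and 244, 255, 242 and 263 at 7 days, against 25.9, 32.6, 25 and 28.8 with DMSO at 7 days. Ccl5 had 0 to 11.4 in 12 libraries and 101, 128, 122 and 117 with sorafenib at 7 days (FDR 0.00116).

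The list did not move as 1 block. Isg20, an exonuclease, Irgm1, a GTPase, and Ifit2 were higher at both times, with responses of 2.42, 1.67 and 1.99 at 48 hours and 2.37, 1.8 and 2.05 at 7 days, and none of the 3 differences passed the test (FDR 0.841, 0.244 and 0.865). That of Irgm1 did pass with total counts as the scaling (FDR 0.0437) and with at least 10 counts required in every library (FDR 0.0419). Ifit2 lies in the lowered region, and its difference was 0.06, or -0.1 without Sorafenib_48h replicate 2. Some members had few counts, such as Ifit3b with 9, 4.06, 4.37 and 4.92 at 7 days and none in the DMSO libraries of that time, and their fold changes are not given. Ifit3b, in the lowered region, passed the test of the difference with and without Sorafenib_48h replicate 2 (FDR 0.0261 and 0.0284). It did not pass without DMSO_48h replicate 2 (FDR 0.9999) or with a replicate block within each time point (FDR 0.1202), so that its call is uncertain.

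Interferon-regulated promoters carry an element with the letters GAAA, 2 bases of any kind, and GAAA again. On either strand this element was in 3.44% of all windows, in 3.59% of tested genes with a window, in 15 of 35 interferon-stimulated genes with one (42.9%) and in 6.22% of late higher genes, against 1.89 to 4.44% in the other classes. The late higher class holds members of the interferon list, of which Ifih1, Gbp7, Isg15, Ifit1 and Ifit3b had a match and Oasl1 had none. The shares of the list and of this class are therefore not separate. The stretches shown are those of genes in the late higher class, where the place of Ifit3b rests on the few counts given above. They lie at chr4:156285303-156285382 on the minus strand, chr19:34618159-34618238 and chr19:34585151-34585230 on the plus strand of GRCm39, with matches in capitals.
Isg15: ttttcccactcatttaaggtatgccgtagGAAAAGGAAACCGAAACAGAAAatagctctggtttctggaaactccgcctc
Ifit1: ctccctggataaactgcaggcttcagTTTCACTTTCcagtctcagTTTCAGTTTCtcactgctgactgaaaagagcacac
Ifit3b: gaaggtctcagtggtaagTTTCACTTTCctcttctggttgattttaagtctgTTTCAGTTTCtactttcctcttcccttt

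Outside that response, the named late higher genes were Klf2, Apln, Naaa, Nrn1 and Pfkp. Klf2, a transcription factor of quiescent and flow-exposed cells, is on chromosome 8 of GRCm39 from 73072726 to 73075502. It had 42, 43.4, 40.8 and 35.4 with DMSO and 61.7, 62, 54.2 and 48.8 with sorafenib at 48 hours, and 51.9, 58.2, 54.4 and 48.2 with DMSO and 343, 349, 336 and 284 with sorafenib at 7 days. The sorafenib libraries of 7 days stood far above all others, with a difference of 2.15 (SE 0.17, FDR 3.68e-09). At 48 hours the sorafenib libraries already lay above the DMSO libraries by a smaller amount. The DMSO libraries of 7 days also lay above those of 48 hours. Naaa, a lysosomal acid amidase, had 676, 709.6, 617 and 692 with DMSO and 679, 792, 696 and 753 with sorafenib at 48 hours, and 201, 229, 199 and 195 with DMSO and 934, 894, 907 and 890.3 with sorafenib at 7 days. DMSO cells lost most of this transcript over time and sorafenib cells did not. Nrn1, a membrane-anchored neurite factor, followed it with responses of -0.41 and 1.6. Apelin (Apln), the other ligand of the receptor of Apela, had responses of -0.11 and 2, and its difference of 2.11 was 1.95 without Sorafenib_48h replicate 2. Vegfa, the angiogenic factor that belongs to both the hypoxia and ATF4 lists, was late higher at 0.43 and 1.83. It lies in the lowered region as well, and its difference was 1.4, or 1.27 without that library.

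The circadian clock list had 10 of 19 genes with a higher and 4 with a lower response at 7 days. The median went from -0.24 to 0.80, or from -0.14 to 0.41 with Npas2, which had no counts in 2 groups, taken at its bound. Rora, a nuclear receptor that drives Bmal1, had 36.2, 46, 49 and 45.8 with DMSO and 40.7, 39.3, 27.6 and 30.7 with sorafenib at 48 hours, and 4.32, 9.42, 3.45 and 7.42 with DMSO and 55.1, 60.1, 50.7 and 75.7 with sorafenib at 7 days. DMSO cells nearly lost it by 7 days and sorafenib cells did not, and the difference was 3.64 (SE 0.32, FDR 1.83e-08). The clock repressors Ciart, Bhlhe41 and Cry2 had responses of 0.74, 0.2 and -0.05 at 48 hours and 2.45, 1.3 and 0.8 at 7 days. Hlf, a clock output factor, went the other way, from -1.66 to -3.45. The hour of harvest is not in the labels, and cannot be told apart from the time point here.

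The late lower genes described here include Saa3, Mycn, Pappa2 and Creb3l1. Saa3, an acute phase protein, is on chromosome 7 of GRCm39 from 46361422 to 46365576. It had 77.2, 61.6, 79.6 and 79.5 with DMSO and 68.8, 71.1, 77.1 and 95.4 with sorafenib at 48 hours, and 651, 722, 693 and 773 with DMSO and 55.1, 54.4, 49.9 and 57.1 with sorafenib at 7 days. DMSO cells of 7 days stood above the other 12 libraries, and over time the log2 change was 3.25 in DMSO and -0.54 in sorafenib cells. The response went from 0.09 to -3.71 (difference -3.8, SE 0.16, FDR 3.64e-13). Mycn, a paralog of the Myc that these cells overexpress, had 363, 370.4, 364 and 335 with DMSO and 427, 455, 401 and 411 with sorafenib at 48 hours, and 861, 809.5, 853 and 844 with DMSO and 101, 129, 112 and 97.4 with sorafenib at 7 days. Over time DMSO cells changed by 1.23 on the log2 scale and sorafenib cells by -1.93. The difference for Mycn was -3.16 (SE 0.096, FDR 3.30e-15), whereas Myc itself had responses of -0.56 and -0.51 whose difference did not pass the test (FDR 0.815). Myc lies in the lowered region, and the difference was 0.05 (SE 0.13), or -0.08 without Sorafenib_48h replicate 2.

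Pappa2, a protease that frees IGF from its binding protein, had 479.9, 575, 566 and 585 with DMSO and 550, 564, 533 and 521 with sorafenib at 48 hours, and 463, 558, 473 and 484 with DMSO and 57.4, 58.5, 57.7 and 42.3 with sorafenib at 7 days. The first 3 groups overlapped and the last lay below them all, with a difference of -3.16 (SE 0.13). Creb3l1, a membrane-bound factor that drives collagen secretion, went from 1215 ± 74.2 (SD, n = 4) normalized counts with sorafenib at 48 hours to 189.8 ± 12.2 at 7 days, against 1609.6 ± 79.2 and 2397 ± 51 with DMSO. Its DMSO cells rose by 0.57 on the log2 scale and its sorafenib cells changed by -2.68. Pmaip1, which encodes the BH3-only death protein Noxa, had responses of 0.43 and -1.55, and its difference of -1.99 was -2.12 without Sorafenib_48h replicate 2, as it lies in the lowered region. Trp53 itself, knocked out in this line, had 1766 to 4147 normalized counts in all 16 libraries, which do not show by themselves whether the gene is functional. Its transcript was transiently lower, with responses of -1 and 0.27.

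The fall of cholesterol synthesis genes deepened. Of 25 tested genes none had a higher and 20 a lower response at 7 days, and in 19 the fall was larger at 7 days with the same sign. The median response was -1.25 at 48 hours and -1.96 at 7 days, and over time sorafenib cells fell by a median of 0.93 while DMSO cells fell by 0.06. Hmgcs1, the synthase ahead of the rate-limiting reductase, had 15557, 16376, 16440 and 15680 with DMSO and 4751, 5009.7, 4845 and 5227 with sorafenib at 48 hours, and 16320, 15434, 15419 and 15031 with DMSO and 2033, 2170.1, 2122 and 1949 with sorafenib at 7 days. DMSO libraries of both times overlapped, and the response went from -1.69 to -2.91 (difference -1.22, SE 0.055, FDR 8.75e-13). The synthetic enzymes Fdps and Cyp51 went from -1.06 and -1.25 to -2.27 and -2.32. Of 24 genes of fatty acid synthesis, 1 had a higher and 14 a lower response at 7 days (62.5% called). Among genes that averaged at least 100 normalized counts, 55.6% were called. The list's median response was -0.61 at 48 hours and -0.73 at 7 days, with a median difference of -0.41. Elovl6, an elongase, deepened from -1.11 to -2.14, whereas Fasn, the synthase, had -0.68 and -0.69, a difference that did not pass (SE 0.058, FDR 0.929). Acsl4, an acyl-CoA synthetase for arachidonic acid, was late lower at -1.22, with a difference of -1.12, or -1.26 without Sorafenib_48h replicate 2.

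The stress response under ATF4 shrank but did not end. Of 34 targets of ATF4 and CHOP, 5 had a higher and 24 a lower response at 7 days. Median responses were 1.84 at 48 hours and 1.55 at 7 days, and in 23 genes the response was smaller at 7 days with the same sign. Between the time points the median of the list changed by 0.45 on the log2 scale in DMSO cells and by -0.08 in sorafenib cells. The smaller response thus came, in the median, mostly with a rise in DMSO cells. Fgf21, a stress hormone, had 6.84, 12.1, 12.3 and 3.46 with DMSO and 153, 181, 185 and 152 with sorafenib at 48 hours, and 11.9, 12, 17.3 and 5.57 with DMSO and 20.2, 32.5, 31.5 and 31.5 with sorafenib at 7 days. Most of its early rise was gone by 7 days (difference -2.96, SE 0.42, FDR 1.11e-05). Slc7a11, the cystine carrier that feeds glutathione synthesis, had 79.2, 90.2, 96 and 89 with DMSO and 1470.5, 1698, 1570.4 and 1556 with sorafenib at 48 hours, and 384, 456, 447 and 417 with DMSO and 2134, 2127, 2143 and 2019.6 with sorafenib at 7 days. Sorafenib cells kept rising, DMSO cells rose more steeply, and the response went from 4.15 to 2.3 (FDR 3.58e-12). Mthfd2, of mitochondrial folate metabolism, had responses of 2.35 and 0.86, and the transcription factor Atf3 had 3.46 and 1.91.

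Ddit3, which encodes CHOP, and the pseudokinase Trib3 shrank by about the median of the list (-0.52), from 3.57 and 4.27 to 2.9 and 3.75. In a few targets the response did not shrink. Sesn2, a leucine sensor, had 2.18 and 2.21 and did not pass the test of the difference (0.03, SE 0.056, FDR 0.703). The endoplasmic reticulum oxidase Ero1a had 3805, 3816, 4255 and 4200.5 with DMSO and 8399, 8748, 9162 and 8608 with sorafenib at 48 hours, and 1890, 1869, 1765 and 1813 with DMSO and 9784, 9924, 9758 and 9609.9 with sorafenib at 7 days. It rose more at 7 days, from 1.12 to 2.41. Ppp1r15a, which restores translation after stress, and the proline enzyme Pycr1 also gained, by 0.4 and 0.31. Of 20 cytosolic aminoacyl-tRNA synthetases none was higher and 15 were lower at 7 days, with median responses of 1.05 and 0.55. With total counts as the scaling 2 were higher and 12 lower. Between the time points their median changed by 0.47 in DMSO cells and by 0.02 in sorafenib cells. Aars, the alanyl enzyme, had responses of 1.73 and 0.76. Of 23 amino acid transporters none was higher and 17 were lower, or 10 with total counts, with Slc7a5, the carrier of large neutral amino acids, at 1.91 and 0.93.

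Markers of the liver lineage moved in both directions. Of 28 tested genes of the list of liver lineage factors and progenitor markers, 4 had a higher and 13 a lower response. The called share was 60.7%, against 36.8% of all tested genes and 55.6% of those averaging at least 100 normalized counts. Median responses were -0.19 at 48 hours and -0.45 at 7 days. H19, a fetal liver noncoding RNA and an abundant transcript here, had 268530, 263860, 272990 and 280960 with DMSO and 24263, 28344, 21664 and 26908 with sorafenib at 48 hours, and 152460, 130880, 137710 and 135920 with DMSO and 1208, 1184, 1185 and 1229 with sorafenib at 7 days. All sorafenib libraries were below all DMSO libraries at both times, and the response went from -3.42 to -6.86 (difference -3.43, SE 0.088, FDR 2.41e-16). Keratin 7 (Krt7), of bile duct cells, went from -1.93 to -5.02, and its difference of -3.09 was -3.15 without Sorafenib_48h replicate 2, as it lies in the lowered region. Dlk1, the surface marker of hepatoblasts, fell further by a small amount, from -1.63 to -2.06.

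**Figure D4:**
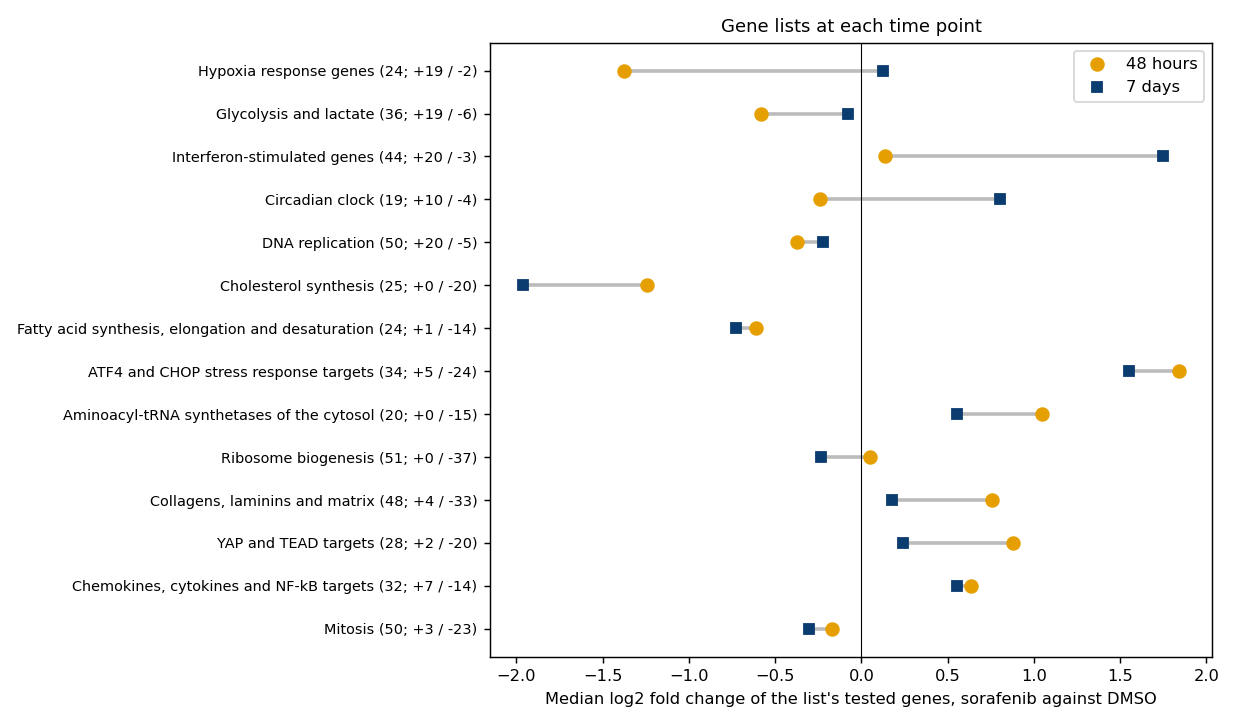
Median log2 fold change of sorafenib against DMSO at 48 hours (circles) and 7 days (squares) for the tested genes of 14 lists, with the number tested and the numbers with a higher (+) and lower (-) response at 7 days beside each name. Hypoxia, glycolysis and interferon lists moved up between the time points, and cholesterol, matrix and YAP lists moved down.

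Growth-related lists were counted next. Of 51 genes of ribosome biogenesis none had a higher and 37 a lower response at 7 days, with a median of 0.05 at 48 hours and -0.23 at 7 days. The counts were 0 and 45 without Sorafenib_48h replicate 2. Over time the list's median was 0.44 in DMSO cells and 0.05 in sorafenib cells. Ddx21, a nucleolar RNA helicase, had 9087, 8841, 8831 and 8415 with DMSO and 11038, 12421, 11670 and 11442 with sorafenib at 48 hours, and 16050, 17243, 16585 and 16646 with DMSO and 12868, 13206, 13286 and 12944 with sorafenib at 7 days. Sorafenib was above DMSO at 48 hours and below it at 7 days. Ltv1 and Bysl, both needed to mature the small subunit, had differences of -0.76 and -0.82, and Bysl, in the lowered region, had -0.91 without Sorafenib_48h replicate 2. Of 53 cytosolic ribosomal proteins, 15 were higher and 2 lower at 7 days (32.1% called, a share below that of all tested genes), with medians of -0.21 and -0.14. Without that library 27 were higher and 4 lower, and with total counts 30 and 0. Of 50 genes of DNA replication, 20 were higher and 5 lower (50% called), with medians of -0.37 and -0.22, and without that library 29 and 6. Mcm6, of the replicative helicase, had responses of -0.4 and -0.19. Of 50 mitosis genes, 3 were higher and 23 lower (52% called), with medians of -0.17 and -0.30. The called shares of replication and mitosis genes were under the 55.6% of genes that averaged at least 100 normalized counts. Plk1, the polo kinase, had 4219.8, 4040.1, 4114 and 4098 with DMSO and 3811, 3984, 3699 and 3773 with sorafenib at 48 hours, and 4626, 4637, 4588 and 4483 with DMSO and 2846, 2803, 2926 and 2806 with sorafenib at 7 days. It was slightly lower at 48 hours and clearly lower at 7 days, with a difference of -0.58 (FDR 1.61e-09). With total counts as the scaling, mitosis genes counted 8 higher and 14 lower, and without that library 6 and 31. Cyclin D1 (Ccnd1) rose more at 7 days, with responses of 1.41 and 2.22.

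Most mitochondrial lists had called shares near the 36.8% of all tested genes and under the 55.6% of those averaging at least 100 normalized counts. These were 37.8% for complex I, 38.9% for complexes III and IV and ATP synthase and 38.6% for mitochondrial ribosomal proteins, so that their counts are no result about these lists. Of 37 complex I subunits 6 were higher and 8 lower at 7 days, or 8 and 11 without Sorafenib_48h replicate 2 and 10 and 4 with total counts, with medians of -0.07 and -0.05. Of 36 subunits of complexes III and IV and ATP synthase 1 was higher and 13 lower (5 and 7 with total counts), and of 57 mitochondrial ribosomal proteins 1 and 21 (3 and 29 without that library, 5 and 15 with total counts). Of 23 mitochondrial chaperones and proteases, 65.2% were called, 2 higher and 13 lower, or 4 and 18 without that library. Cytochrome c (Cycs) went from 0.71 to -0.16. Of 33 genes of the TCA cycle and anaplerosis 2 were higher and 15 lower (51.5% called, under the same 55.6%). Without that library the counts were 3 and 19, and with total counts 4 and 12. Citrate synthase (Cs) had 8491, 8777, 8514 and 8509 with DMSO and 11507, 12347, 11462 and 11384 with sorafenib at 48 hours, and 12587, 13039, 12897 and 12589 with DMSO and 10503, 10526, 10530 and 10393 with sorafenib at 7 days. Its response turned from 0.45 to -0.28, and cytosolic isocitrate dehydrogenase (Idh1) deepened from -0.75 to -1.67. Pck2, the mitochondrial PEPCK that the study followed, had 2215 ± 106 (SD, n = 4) and 7962 ± 330.2 normalized counts at 48 hours and 2349 ± 80.9 and 4516 ± 97.4 at 7 days, and its response was smaller at 7 days by -0.9 (FDR 8.35e-11).

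Among other genes the study named, Gpd1l, a glycerol 3-phosphate dehydrogenase of the cytosol, had 1398, 1404, 1352 and 1314 with DMSO and 1573, 1567, 1579.9 and 1579 with sorafenib at 48 hours, and 1545, 1594, 1619 and 1543 with DMSO and 1126, 1088, 1102 and 1097 with sorafenib at 7 days. Its response turned from 0.2 to -0.52 (FDR of the difference 2.60e-10). The mitochondrial partner Gpd2 had 0.58 and 0.65, with a difference of 0.07 (SE 0.046). This difference passed with total counts as the scaling (FDR 0.0244) and with at least 10 counts required in every library (FDR 0.00851). In the fit used throughout it did not pass (FDR 0.267). Neither did those of Gk, glycerol kinase (0.05, SE 0.17, or -0.1 without Sorafenib_48h replicate 2), Ldhd, D-lactate dehydrogenase (0.04, SE 0.56), or Slc3a2, the partner of Slc7a11 (-0.27, SE 0.13, or -0.41 without that library, where it passed). The cytosolic phospholipase Pla2g4a gained from 1.39 to 1.96 and the lipoprotein receptor Vldlr from 2.01 to 2.63, with Vldlr in the lowered region (difference 0.62, or 0.48 without that library). Mgll, a monoglyceride lipase, went from 3.2 to 2.67, Gpx4, which reduces lipid peroxides, from 0.34 to 0.61, and Phgdh, the first enzyme of serine synthesis, from 1.3 to 1.01. The remaining 4 lie in the lowered region. Srebf2, the factor that drives cholesterol synthesis genes, had responses of -1.18 and -1.96, with a difference of -0.78, or -0.92 without that library. Cpt1a, which admits fatty acids to mitochondria, had a difference of 0.45, or 0.32. The glyoxalases Glo1 and Hagh had differences of -0.0037 (SE 0.11, FDR 0.993) and 0.49 (SE 0.12, FDR 0.00314), or -0.12 and 0.4 without that library. With an offset for the lowered counts the difference of Glo1 was -0.15 and passed (FDR 0.031).

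Repeated without Sorafenib_48h replicate 2, the contrast called 8761 of 20353 genes (43%). Both fits called 7336 genes, none with a change of sign, 179 were called with the library only and 1425 without it only, 778 of these in the lowered region. In the region the share called rose from 27.2% to 46.3%, and outside it from 43.8% to 47.1%. Among genes that averaged at least 100 normalized counts, 28.7 to 36.7% of genes on chromosomes 15 to 19 and X were called with the library and 64.2 to 71.4% without it, whereas on chromosomes 1 to 14 the shares were 57 to 65% and 63.6 to 69.9%. Of the transient genes, 165 of the 174 higher (94.8%) and 177 of the 202 lower (87.6%) kept their class, as did 266 of 302 (88.1%) late higher, 161 of 187 (86.1%) late lower, 68 of 73 (93.2%) that went from higher to lower and 97 of 118 (82.2%) that went from lower to higher. All 30 genes chosen to represent their class passed the test of the difference in each of the 24 other settings tried. They had been chosen for large differences that held without this library, which is itself among those settings. Their passing is thus no separate support.

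**Figure D5:**
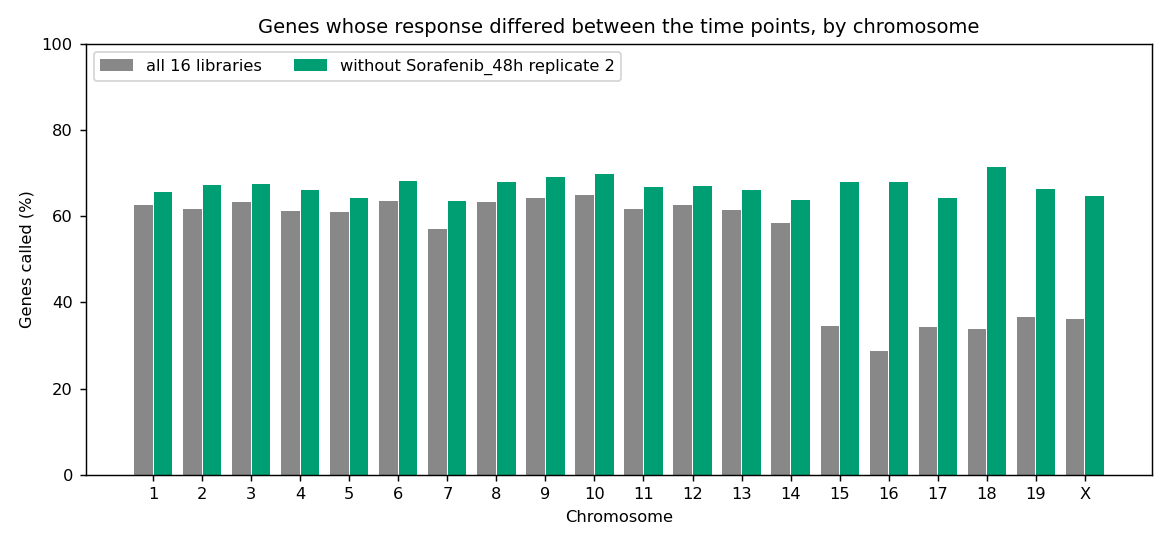
Share of genes, in percent, whose response differed between the time points at an FDR under 0.05, by chromosome, among genes that averaged at least 100 normalized counts, with all 16 libraries (grey) and without Sorafenib_48h replicate 2 (green). On chromosomes 15 to 19 and X the grey bars stand at 28.7 to 36.7% and the green bars at 64.2 to 71.4%.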

How the data were processed

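RNA from 16 libraries was analysed as the authors' table of counts, whole reads per gene with no normalization or filter. Per the submitters' processing notes, STAR 2.7.1a, featureCounts 2.0.6 and DESeq2 1.40.2 were used with GRCm39. The strand setting and annotation release are not given in the sources used here, so that overlapping, antisense and near-identical genes are uncertain. Testing covered genes with at least 10 counts in total and used edgeR 4.0.16 under R 4.3.3 (quasi-likelihood test, TMM factors, 1 coefficient per group, no block, Benjamini-Hochberg FDR under 0.05). For normalized counts, each count was divided by the effective library size (total counts and TMM factor together), with the geometric mean size of all libraries set to 1. limma 3.58.1 (voom) and DESeq2 1.42.0 gave alternatives. Scripts were tested on simulated data. No 2 replicates were as close as counting error (mean chi-square per gene 1.576 to 71.55). Named genes were the 5 with the largest difference in each class that held with and without Sorafenib_48h replicate 2 (mean of at least 100), the 3 largest called members of each of 42 lists, and genes the study named. Further list members, among them Cxcl12, Ccl2, Lif, Irgm1, Isg20 and Ifit2, were chosen after their values were seen. Some genes that the rule named are not reported here. Classes, lists and named genes were chosen with earlier results of these data known.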

Additional observations from a re-analysis of the deposited data

Results flagged for a closer look

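In single groups of 4, the highest or lowest library of some genes chosen to represent their class lay further from the others than Dixon's limit allows. This happened in 11 of the 120 groups of the 30 genes, and chance gives about 1 in 20. In Sorafenib_48h replicate 2, Nrg1 was highest (853 normalized counts), and Fam162a (877) and Pgk1 (2233), both in the lowered region, were lowest. Kbtbd11 was highest in Sorafenib_48h replicate 1 (115) and Sorafenib_7days replicate 4 (76.7), Pappa2 was lowest in Sorafenib_7days replicate 4 (42.3), Creb3l1 was highest in Sorafenib_7days replicate 1 (208) and Saa3 was lowest in DMSO_48h replicate 2 (61.6). DMSO_7days replicate 1 was highest in its group for Pfkl (2062), Bnip3 (271) and Pdk1 (876). The share of counts in the lowered region stood apart in Sorafenib_48h (14.3%, replicate 2) and, by a small amount, in DMSO_7days (20.8%).

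The responses of 7515 genes differed between the time points by the test of the difference itself. Among them were the 174 and 202 transient genes, the 302 and 187 late genes, and the 73 and 118 sign-reversing genes. The leading genes of each class differed by -3.70 (Tagln), 3.17 (Selenbp1), 2.15 (Klf2), -3.80 (Saa3), -4.18 (Ltbp2) and 3.84 (Bnip3) on the log2 scale.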

How the results depend on the processing

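No called gene named here changed sign under any of the 24 other settings, and 207 of the 217 called ones passed in every setting that tested them. Those that did not were mostly genes with few counts, such as Abcb1a, Ctsh, Lcn2 and Ifit3b. Many named genes were chosen for the size of their difference, so that a high share passing was partly set by that choice. Requiring a log2 difference of at least 1 left 1965 genes (1101 higher, 864 lower). Requiring 10 counts in every library, which tests fewer genes, left 245 transient, 318 late and 116 sign-reversing genes. DESeq2 called 7634 genes, DESeq2's size factors 7529, total counts 7417, no filter beyond 1 count 7288, limma voom 8658 and an offset for the lowered counts 8682. Leaving out any 1 of the 15 libraries other than Sorafenib_48h replicate 2 gave 7073 to 7402 genes (2913 to 3405 higher and 3915 to 4235 lower), 354 to 387 transient, 460 to 489 late and 170 to 188 sign-reversing. Genes changed at 48 hours then numbered 10609 to 11089 and at 7 days 10981 to 11678. Without that library there were 398 transient, 502 late and 195 sign-reversing genes.

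With a replicate block within each time point 6987 genes were called, with 336 transient, 444 late and 158 sign-reversing. Deviations of same-numbered libraries correlated by -0.0486 to 0.0118 at 48 hours and -0.00477 to 0.127 at 7 days, so that the numbers were not taken to pair the libraries. Depth limits genes with few counts, among them Ifit3b and Slc30a10, for which levels are given and no fold.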

Other observations

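Lists not described above had called genes in both directions. Their counts stand against 15.5% of all tested genes with a higher and 21.3% with a lower response at 7 days, and are not tested. Among genes that averaged at least 100 normalized counts, 55.6% were called in either direction. With total counts as the scaling the majority turned from lower to higher in 7 of 42 lists, 6 of them given here (lipid droplets 7 and 5, NRF2 targets 12 and 10, phospholipid remodeling 9 and 8, G1 cyclins and CDK inhibitors 5 and 4, heat shock chaperones 8 and 6, lysosome 15 and 9) and complex I. Of 34 tested genes of NRF2 targets and glutathione 10 had a higher and 13 a lower response at 7 days, of 26 genes of lipid droplets 5 and 7, of 28 genes of beta-oxidation 6 and 4 (10 and 5 without Sorafenib_48h replicate 2, 13 and 3 with total counts), and of 31 genes of phospholipid remodeling 6 and 9 (9 and 14 without that library). Cpt1c, a brain-type carnitine palmitoyltransferase, was transiently lower (-1.05 and 0.23), and Lpcat2, which makes phosphatidylcholine from lysolipid, transiently higher (1.13 and 0.28). Of 24 genes of serine synthesis and folate 3 were higher and 13 lower, as were 3 and 13 of 24 genes of nucleotide synthesis. Ctps, a CTP synthase, had responses of 0.96 and 0.16.

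Of 43 genes of the lysosome 14 were higher and 18 lower, of 31 autophagy genes 14 and 8 (17 and 3 with total counts), of 30 endoplasmic reticulum chaperones 5 and 14 (6 and 9 with total counts), and of 25 heat shock chaperones 5 and 10. Atg14, of the autophagy kinase complex, turned from -0.34 to 0.45. Cryab, a small heat shock protein, turned from 0.64 to -0.55. Of 21 genes of iron handling and metallothioneins 7 were higher and 9 lower. The zinc exporter Slc30a1 was late lower at -1.59, and had 1806 ± 20 normalized counts (SD, n = 4) in DMSO cells and 599 ± 26.7 in sorafenib cells of that time. Its relative Slc30a10, a manganese exporter, had 29.3, 25.2, 25.5 and 38 with DMSO at 48 hours and 0 to 1.08 in the other 12 libraries.

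Of 33 p53 targets and apoptosis genes 6 were higher and 14 lower, of 20 CDK inhibitors and G1 cyclins 3 and 6, of 27 histone and chromatin genes 2 and 9, and of 19 drug efflux transporters 4 and 4 (7 and 4 with total counts). Trp53inp1, which promotes autophagy and death, was late higher at 1.16. The DNA methyltransferase Dnmt3a went from 0.07 to -0.85, and Dnmt3b from -0.78 to -1.54. Of 39 TGF-beta, Wnt and Notch targets 9 were higher and 21 lower, of 26 epithelial and mesenchymal markers 4 and 11, of 32 kinases and growth factor receptors 6 and 10, and of 23 hepatocyte genes 3 and 9. Nrarp, a Notch feedback gene, was transiently lower (-2.43 and 0.01), Cldn3, a tight junction protein, was late lower, with 24.9, 24, 17.3 and 26 normalized counts with DMSO and 2.25, 0.812, 1.75 and 2.95 with sorafenib at 7 days, and Itih2, a hyaluronan-binding plasma protein, had 70.2, 62, 59 and 55.6 with sorafenib at 48 hours and 229, 209.5, 238 and 252 at 7 days.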
